A study of Mus musculus with 2 samples.

Results

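Akr1c12, Akr1c13 and Akr1c18 are neighbouring mouse genes for aldo-keto reductases of the AKR1C subfamily, and they were picked by gene symbol as 3 of 9 Akr1c symbols and of 32285 genes listed for both libraries. The choice was made with their levels in these libraries and their relation to Cpa3 already known, so the values below describe the genes and carry no test. The study profiled late promyelocytes from leukemic mouse bone marrow whose cells carry PLZF/RARA, a fusion of the zinc finger protein PLZF with the retinoic acid receptor alpha that gives an acute promyelocytic leukemia with a poor response to retinoic acid. Both groups were PLZF/RARA transformed progenitors sorted as positive for Cd45.2, C-Kit, Gr1 and FcγR and negative for Cd34, and both were treated for 7 days by intraperitoneal injection. The vehicle group received corn oil with 10% DMSO, and the other group received 0.8 to 1 mg of retinoic acid. A cohort held 3 to 5 mice, and the labels give neither the strain, age and sex of the mice nor how many of them gave cells to a library. RNA was measured per cell with a droplet method that reads the 3′ end of polyadenylated transcripts and counts unique molecular identifiers (UMIs), each of which marks 1 captured RNA molecule.

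Each group held 1 library, so no difference between the libraries has a replicate check, and the mice, the sort and the preparation cannot be told apart from the treatment. The values below rest on 5476 vehicle cells (99107718 UMIs in all) and 7140 retinoic acid cells (110088247 UMIs). The libraries shared 11 cell barcodes, and the ratios of the 3 genes without those barcodes were −4.93, −3.16 and −8.21 on the log2 scale. Of 6 promyelocyte markers, all were counted in both libraries. They summed to 8291.4 CPM (UMIs per 1000000 UMIs of the library) under vehicle and 18863.4 CPM under retinoic acid, but single markers moved in opposite ways. Mpo, a defining one, was at 311.3 and 0.50 CPM. Elane was at 62.8 and 7663.2 CPM, Prtn3 at 246.4 and 2818.6 CPM, and Ms4a3 at 849.9 and 2087.1 CPM. Ctsg and Prss57 lay within 2-fold. Although the sort was for cells negative for Cd34, Cd34 RNA was at 53.8 CPM under vehicle and 0.118 CPM under retinoic acid, and at 5000 UMIs per cell it was found in 22.0% and 0.0150% of cells. The 12 mast cell and basophil markers summed to 807.5 and 68.1 CPM. Most of the sum came from Cpa3 under vehicle (569.9 CPM) and from Mcpt8 under retinoic acid (63.1 CPM). Cpa3 was at 0.0999 CPM under retinoic acid and Mcpt8 at 121.7 CPM under vehicle. Of the 12 markers, 4 and 6 were at 0, among them the mast cell tryptases Tpsb2 and Tpsab1, the protease gene Mcpt4 and the IgE receptor gene Fcer1a in both libraries. A summed level cannot tell fewer cells of a type from less RNA per cell.

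AKR1C enzymes are cytosolic proteins that use NADPH to reduce ketone groups of steroids, prostaglandins and other carbonyl compounds. Akr1c18 encodes 20α-hydroxysteroid dehydrogenase, which inactivates progesterone and is best known from the corpus luteum of the ovary. In blood cells, 20α-hydroxysteroid dehydrogenase activity is a long-known feature of cells that grow on interleukin-3, and the human relative AKR1C3 has been studied in myeloid leukemia. Cpa3, the gene against which the 3 genes are set here, encodes carboxypeptidase A3 of mast cell and basophil granules.

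The 3 genes lie within 146.8 kb of chromosome 13 (GRCm38, GENCODE M21 models). Akr1c18 (ENSMUSG00000021214) runs from 4132615 to 4150654 on the minus strand, Akr1c13 (ENSMUSG00000021213) from 4191150 to 4205596 on the plus strand, and Akr1c12 (ENSMUSG00000021211) from 4268176 to 4279433 on the minus strand, and the model with most exons has 9 in each. Akr1c19 lies between Akr1c13 and Akr1c12. The 300 bases around the RefSeq start of each gene, 250 before it and 50 after, are shown because Akr1c12 and Akr1c13 start from near copies of 1 sequence while Akr1c18 does not. Sequences are those of RefSeq, build GRCm38.p6, written 5′ to 3′ on the strand of the gene. The RefSeq starts, at 4279399 for Akr1c12, 4191187 for Akr1c13 and 4150646 for Akr1c18, lie inside the GENCODE models given above, and positions in the windows are counted from the RefSeq starts. Capitals mark matches to a GATA factor motif (AGATAA, the variant AGATAG, the form TGATAA or the variant TGATAG) or an ETS factor motif (CGGAAG) on either strand.
Akr1c12, chr13:4279350-4279649, minus strand: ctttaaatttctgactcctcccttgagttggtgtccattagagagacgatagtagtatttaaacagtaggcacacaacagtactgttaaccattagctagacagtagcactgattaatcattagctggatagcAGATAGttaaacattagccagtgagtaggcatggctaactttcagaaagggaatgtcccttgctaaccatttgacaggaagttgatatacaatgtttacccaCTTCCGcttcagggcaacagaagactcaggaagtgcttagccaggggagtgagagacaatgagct
Akr1c13, chr13:4190937-4191236, plus strand: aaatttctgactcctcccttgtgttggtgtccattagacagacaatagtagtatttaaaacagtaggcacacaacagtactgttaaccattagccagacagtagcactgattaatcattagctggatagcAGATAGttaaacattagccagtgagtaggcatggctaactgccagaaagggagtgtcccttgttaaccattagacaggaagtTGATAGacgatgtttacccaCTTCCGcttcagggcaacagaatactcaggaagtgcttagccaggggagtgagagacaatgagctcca
Akr1c18, chr13:4150597-4150896, minus strand: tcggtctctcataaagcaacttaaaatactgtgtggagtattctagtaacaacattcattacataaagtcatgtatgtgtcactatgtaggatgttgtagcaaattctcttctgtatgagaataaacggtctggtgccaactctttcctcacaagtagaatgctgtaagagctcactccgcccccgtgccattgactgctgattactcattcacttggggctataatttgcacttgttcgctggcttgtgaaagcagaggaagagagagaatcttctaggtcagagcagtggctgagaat

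Aligned with unmatched ends left out of the count, the windows of Akr1c12 and Akr1c13 were identical at 284 of 297 aligned columns (95.6%), with 12 mismatches and 1 gap. The window of Akr1c18 was identical to that of Akr1c12 at 48.3% and to that of Akr1c13 at 49.5% of the aligned columns. AGATAG stood at bases −117 to −112 before the start of Akr1c12 and at −120 to −115 before that of Akr1c13, and Akr1c13 had a second match, TGATAG, at −38 to −33. CTTCCG, the opposite strand of the ETS letters, stood at −15 to −10 and at −18 to −13. None of these letters was found in the Akr1c18 window. A GATA match was found in 29.8% and an ETS match in 16.9% of 32851 promoter windows of this length, and in 18.2% and 36.4% of the windows of genes that reached 20 CPM in either library. The STAT letters TTCNNNGAA were absent from the 3 windows and present in 8.3% of all windows, searched on both strands as were the others. The same held for TGACNNNGC of the antioxidant element (12.4% of all windows), TGTGGT for RUNX factors (16.8%), TTGCNNAA for C/EBP factors (10.8%) and the TATA box TATAAA (13.6%). The GATA spellings and the ETS motif were chosen after the sequences had been seen.

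The likeness of Akr1c12 and Akr1c13 bears on their counts, because reads could be split between near-identical copies. The longest coding transcripts, 1261 and 1262 bases long, were 94.5% identical, and their last 500 bases, where 3′ reads fall, were 91.8% identical with 39 mismatches. The longest identical run in those last 500 bases was 80 bases, and none of the 411 windows of 90 bases in the last 500 bases of any of the 3 genes occurred in a transcript of another Akr1c gene. The read length is not given in the sources used here, so the counts of Akr1c12 and Akr1c13 are uncertain to the extent that shorter matches were used. Akr1c18 shared no run longer than 18 bases with either in the last 500 bases.

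All 3 genes were lower in the retinoic acid library, but to very different extents. Levels are UMIs at the 3′ end, which are not scaled by length, and the longest coding transcripts have 1261 (Akr1c12), 1262 (Akr1c13) and 1200 (Akr1c18) bases. Akr1c13 had the highest level, with 23895 counts or 241.1 CPM (exact Poisson interval 238.1 to 244.2) under vehicle and 2973 counts or 27.0 CPM (26.0 to 28.0) under retinoic acid. Its log2 ratio of retinoic acid over vehicle was −3.16 (exact binomial interval −3.21 to −3.10), which is 8.93-fold lower. Akr1c12 had 3473 counts or 35.0 CPM (33.9 to 36.2) under vehicle and 126 counts or 1.15 CPM (0.953 to 1.36) under retinoic acid, a log2 ratio of −4.93 (−5.20 to −4.68). Akr1c18 had 4416 counts or 44.6 CPM (43.3 to 45.9) under vehicle and only 16 counts or 0.145 CPM (0.0831 to 0.236) under retinoic acid, a log2 ratio of −8.22 (−9.07 to −7.56), which was −7.57 with every cell weighted equally. Akr1c18 thus stood above Akr1c12 under vehicle and below it under retinoic acid. The 3 intervals of the ratios did not overlap, so the ratios differed by more than counting error, which is the only error these intervals cover. The background was 5548 genes that reached 20 CPM in 1 library or both. Of these, 8.07% differed at least 2-fold, with 5.05% lower and 3.03% higher under retinoic acid, and 0.955% were at least 8-fold lower. The 3 genes were all at least 8-fold lower. These shares are given as a background only, since the genes were chosen for this difference.

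The rest of the Akr1c cluster was nearly silent. Of 8 Akr1c genes between Akr1c14 and Akr1c21, a stretch of 537.5 kb, 4 had at least 10 counts over both libraries. The fourth was Akr1c19, which had 90 counts (0.908 CPM) under vehicle and 4 counts (0.0363 CPM) under retinoic acid, a log2 ratio of −4.48 (−6.55 to −3.24). Akr1c14, Akr1c6 and Akr1c20 had 0 counts in both libraries, and Akr1c21 had 0 and 1, where 3 counts would be 0.0303 CPM under vehicle and 0.0272 CPM under retinoic acid. Akr1e1, the reductase gene next to the cluster, was at 24.5 and 9.29 CPM, a log2 ratio of −1.40 (−1.51 to −1.29). Ucn3 and Tubal3 on the other side had at most 1 count in either library. The counted Akr1c genes therefore stood together in the order Akr1c18, Akr1c13, Akr1c19 and Akr1c12, with genes at or near 0 on both sides before Akr1e1.

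**Figure D1:**
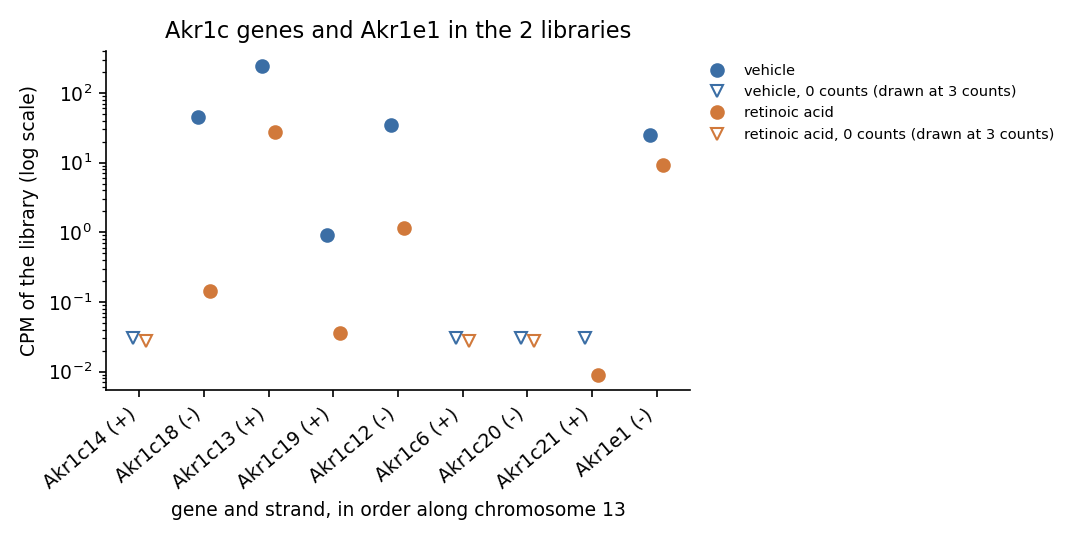
Level of each Akr1c gene of the cluster and of Akr1e1 (CPM, log scale) in the vehicle and the retinoic acid library, in their order along chromosome 13 with the strand in brackets. Open triangles stand for 0 counts and are drawn at the level of 3 counts; Akr1c13 is highest in both libraries, at 241.1 and 27.0 CPM.

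The share of cells with a UMI was compared after each cell with at least 5000 UMIs had been thinned at random to 5000, which left 5282 vehicle and 6659 retinoic acid cells. Akr1c13 was found in 2589 vehicle cells (49.0%, exact binomial interval 47.7 to 50.4) and in 822 retinoic acid cells (12.3%, 11.6 to 13.2). Akr1c12 was found in 657 vehicle cells (12.4%, 11.6 to 13.4) and in 43 retinoic acid cells (0.646%, 0.468 to 0.869). Akr1c18 was found in 351 vehicle cells (6.65%, 5.99 to 7.35) and in 2 retinoic acid cells (0.0300%, 0.00364 to 0.109). Without thinning the shares were 73.1% and 30.8% for Akr1c13, 26.7% and 1.74% for Akr1c12, and 11.6% and 0.196% for Akr1c18. At least 1 of the 3 genes was found in 52.6% of thinned vehicle cells and in 12.9% of thinned retinoic acid cells. In 62 vehicle cells whose share of neutrophil maturation genes exceeded the retinoic acid median, a UMI of Akr1c13 was found in 14.5% (6.86 to 25.8), of Akr1c12 in 1.61% (0.0408 to 8.66) and of Akr1c18 in 1.61% (0.0408 to 8.66). Those cells had a median depth of 10175.5 UMIs before thinning, against 17016.5 over all thinned vehicle cells. The vehicle shares of Akr1c12 and Akr1c13 lay above the intervals of these cells, and that of Akr1c18 lay within its wide interval. These cells come from the vehicle library, so they give no background level for the retinoic acid library, where the part of free RNA in the 12.3% of cells with Akr1c13 was not tested.

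**Figure D2:**
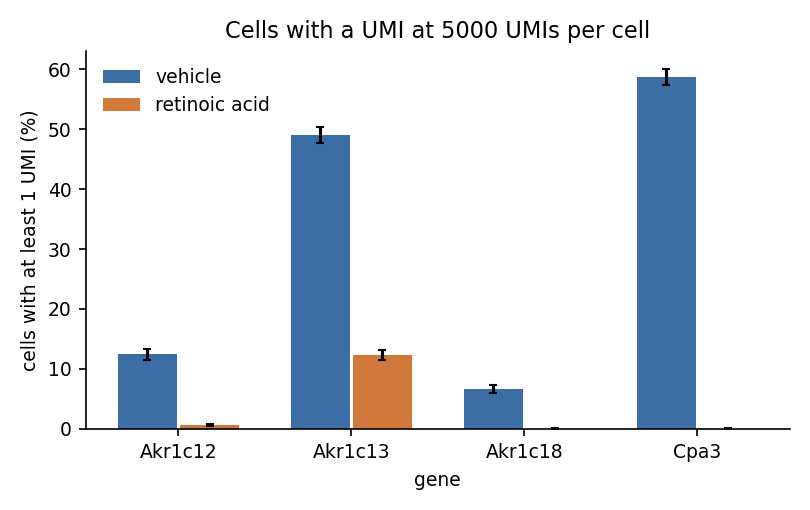
Share of cells with at least 1 UMI (percent) of each Akr1c gene and of Cpa3 at 5000 UMIs per cell, in 5282 vehicle and 6659 retinoic acid cells. Bars are shares and lines exact 95% binomial intervals, which cover counting error only; Akr1c13 was found in 49.0% and 12.3% of cells, and Akr1c18 in 6.65% and 0.0300%.

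The 3 genes were spread over vehicle cells in different ways. Over all UMIs, 53 cells, or 0.968% of the library, held 50% of the Akr1c18 UMIs, and 1 of them had 115. The 5% of cells with most Akr1c18 held 89.6% of its UMIs. For Akr1c12, 289 cells (5.28%) held 50% of the UMIs, and no cell had more than 16. For Akr1c13 it took 640 cells (11.7%), close to the 617 cells (11.3%) for Cpa3. Ptprc, which encodes the pan-leukocyte protein CD45, took 1147 cells (21.0%). The UMIs of Akr1c18 were thus held mostly by few cells, while those of Akr1c13 were spread over a large part of the library. The median positive cell did not separate the 2 genes in this way, but the cells with most UMIs did. Over all UMIs the median was 2 UMIs for Akr1c18 and 3 for Akr1c13, and 117 of 634 and 790 of 4000 positive cells had at least 10 UMIs. Of the 634 cells with Akr1c18, 271 had 1 UMI. At 5000 UMIs per cell both medians were 2. There, 55 of 351 cells with Akr1c18 and 33 of 2589 cells with Akr1c13 had at least 10 UMIs, and the highest counts were 84 and 14.

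**Figure D3:**
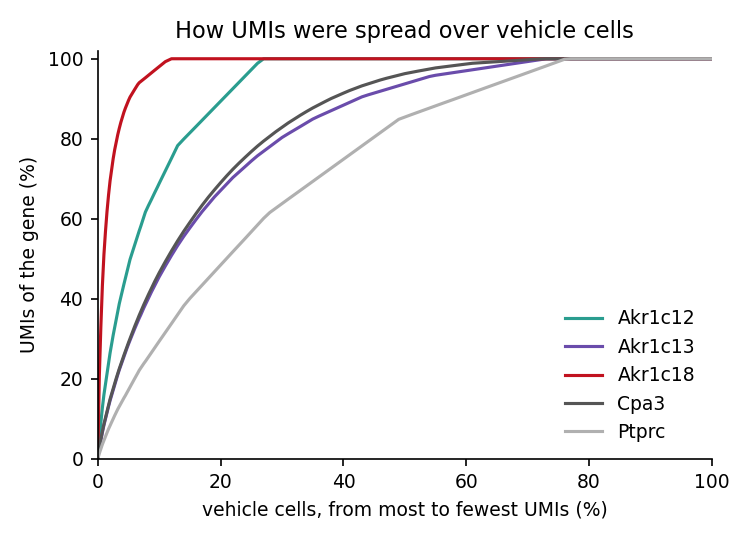
Share of a gene's UMIs (percent) held by vehicle cells ranked from most to fewest UMIs of that gene (percent of 5476 cells). The Akr1c18 line is the steepest, with 89.6% of its UMIs in 5% of the cells, against 48.3% for Akr1c12, 28.7% for Akr1c13 and 29.1% for Cpa3.

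The genes were often found in the same vehicle cells. Akr1c13 was found in 78.7% (75.4 to 81.8) of cells with Akr1c12 and in 44.8% (43.4 to 46.3) of cells without it. It was found in 84.1% (79.8 to 87.7) of cells with Akr1c18 and in 46.5% (45.1 to 47.9) of cells without. Akr1c12 was found in 33.1% (28.2 to 38.2) of cells with Akr1c18 and in 11.0% (10.1 to 11.9) of the others. All 3 genes were found in 109 of 5282 vehicle cells (2.06%) and in 0 of 6659 retinoic acid cells. Over vehicle cells the Pearson correlation of log(1 + UMIs) was 0.30 for Akr1c12 with Akr1c13, 0.27 for Akr1c13 with Akr1c18 and 0.20 for Akr1c12 with Akr1c18. These are descriptions over cells of 1 library, which share its preparation and its free RNA, and have no p-value.

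By correlation over cells, Cpa3 went with Akr1c13 and Akr1c12 more than with Akr1c18, but by presence in a cell it did not. The correlation with Cpa3 over 5282 vehicle cells was 0.37 for Akr1c13, 0.25 for Akr1c12 and 0.08 for Akr1c18. Among 5172 other genes with at least 20 CPM under vehicle, Cpa3 ranked 1 for Akr1c13, 2 for Akr1c12 and 269 for Akr1c18. In cells with 0, 1, 2 to 4 and 5 or more Cpa3 UMIs, Akr1c13 was at 113.4, 207.4, 300.8 and 422.0 CPM, and the 4 Poisson intervals did not overlap. Akr1c12 was at 13.3, 26.9, 37.1 and 83.1 CPM in the same cells, and the intervals of the first 3 groups, 11.2 to 15.7, 22.0 to 32.6 and 32.0 to 42.9, overlapped only between the second and the third. Akr1c18 was at 47.0 CPM (43.0 to 51.3) in cells without Cpa3 and at 79.7, 77.3 and 72.7 CPM in the other groups, whose intervals overlapped. These intervals treat each UMI as independent, and few cells held most Akr1c18 UMIs, so those of Akr1c18 are too narrow to show the spread between cells. By cells, 61.2% of Cpa3-positive and 31.6% of Cpa3-negative cells had Akr1c13, 17.8% and 4.82% had Akr1c12, and 8.83% and 3.53% had Akr1c18. In turn, Cpa3 was found in 73.4% of cells with Akr1c13, 84.0% of cells with Akr1c12 and 78.1% of cells with Akr1c18. It was found in 58.75% of all thinned vehicle cells. By presence, Akr1c18 was thus not behind Akr1c13. In the retinoic acid library Cpa3 was found in 3 of 6659 thinned cells, none of which had a UMI of any of the 3 genes, so a relation to Cpa3 could not be read there.

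**Figure D4:**
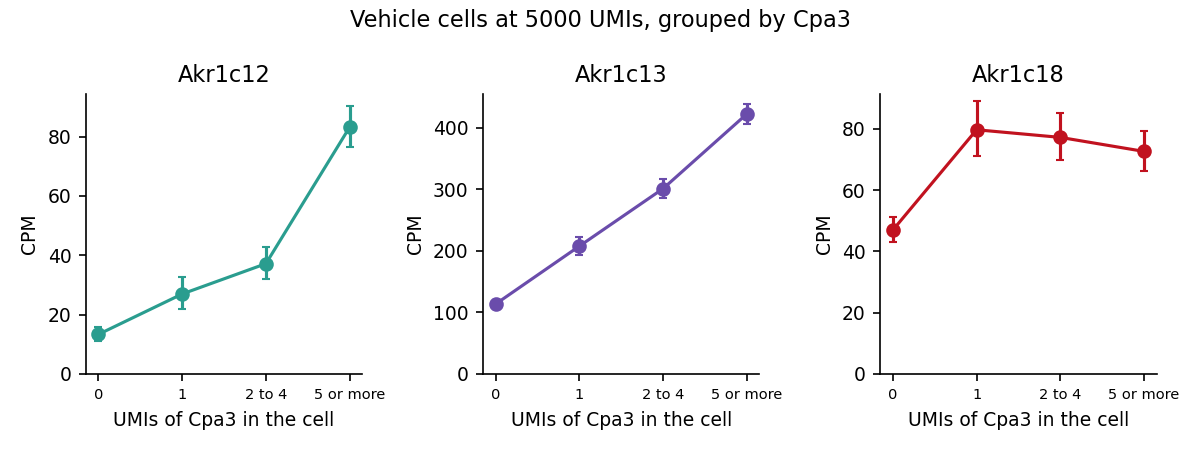
Level (CPM) of each Akr1c gene in vehicle cells at 5000 UMIs, grouped by the number of Cpa3 UMIs in the cell (2179, 780, 1002 and 1321 cells). Points are levels and lines exact 95% Poisson intervals; Akr1c13 is higher in each next group, Akr1c12 likewise but with overlapping intervals between 1 and 2 to 4 Cpa3 UMIs, and Akr1c18 has overlapping intervals from 1 Cpa3 UMI on.

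Cells with Mpo, the myeloperoxidase gene of primary granules, had less of all 3 genes. Among cells with Cpa3 and no Mpo, Akr1c13 was at 344.7 CPM, Akr1c12 at 60.0 CPM and Akr1c18 at 87.4 CPM. In cells with both genes Akr1c13, Akr1c12 and Akr1c18 were at 250.2, 24.7 and 18.9 CPM, in cells with neither at 120.7, 15.6 and 64.9 CPM, and in cells with Mpo and no Cpa3 at 95.4, 7.61 and 3.17 CPM. Both among cells with Cpa3 and among cells without it, the intervals of all 3 genes were lower with Mpo and did not overlap. The intervals treat each UMI as independent, although 53 vehicle cells held 50% of all Akr1c18 UMIs. For Akr1c18 they are therefore too narrow to show the spread between cells. Over all cells, Akr1c13 was at 260.8 CPM without Mpo and at 165.2 CPM with it. In 458 cells with 5 or more Mpo UMIs, Akr1c18 was at 2.62 CPM (0.962 to 5.70), from 6 UMIs.

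The genes most like each of the 3 in vehicle cells differed between Akr1c18 and the other two. For Akr1c13 they were Cpa3 (correlation 0.37), Ifitm1 (0.35), which encodes an interferon-induced transmembrane protein, Cyp11a1 (0.32), which encodes the enzyme that turns cholesterol into pregnenolone, Akr1c12 (0.30) and Wfdc12 (0.30). For Akr1c12 they were Akr1c13 (0.30), Cpa3 (0.25), Ifitm1 (0.25), Cyp11a1 (0.23) and Akr1c18 (0.20). For Akr1c18 they were the chemokine gene Ccl6 (0.58), Ly6g (0.49), which encodes an antigen seen by Gr1 antibodies, the protease gene Furin (0.43), Hdc (0.38), which encodes the enzyme that makes histamine, and Cyp4f18 (0.37), followed by Cyp11a1 (0.37) in rank 6. Of all genes compared, 99% had a correlation below 0.21 with Akr1c18, 0.12 with Akr1c13 and 0.10 with Akr1c12. The lowest correlations were those of Ctsg (−0.30), Hsp90ab1 (−0.29) and Ptma (−0.27) for Akr1c18, of Hp (−0.24), Ngp (−0.23) and Ms4a3 (−0.21) for Akr1c13, and of Ms4a3 (−0.18), Ctsg (−0.16) and Hmgb2 (−0.15) for Akr1c12. Ctsg and Ms4a3 are promyelocyte markers, and Hp and Ngp belong to the granule program of later neutrophil stages. For the summed UMIs of the 3 genes, Cyp11a1 ranked 1, at 0.40.

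**Figure D5:**
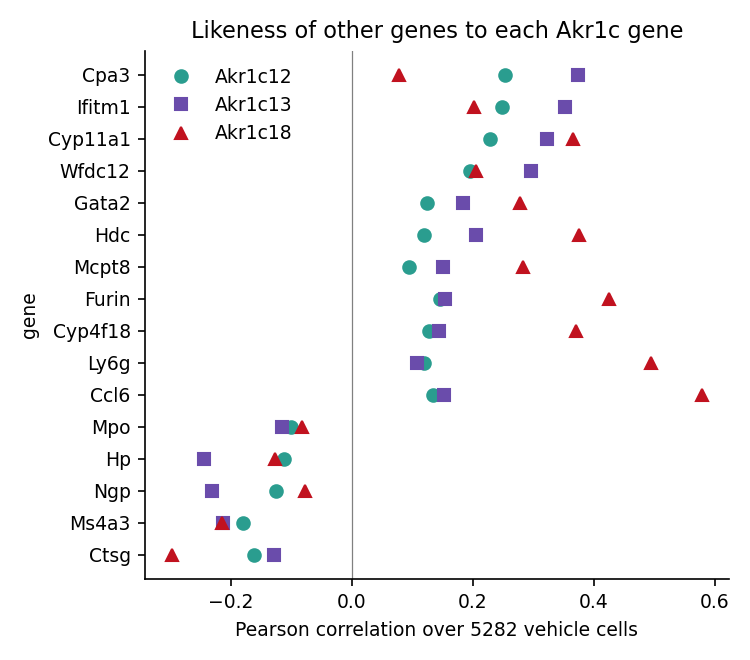
Pearson correlation of log(1 + UMIs) between each Akr1c gene and 16 other genes over 5282 vehicle cells at 5000 UMIs per cell. Akr1c18 lies furthest right for Ccl6 (0.58) and Ly6g (0.49), Akr1c13 for Cpa3 (0.37), and all 3 lie left of 0 for Ctsg and Ms4a3.

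The 93 vehicle cells with at least 5 Akr1c18 UMIs are given as a range of Akr1c18 levels, not as a cell type, and the values describe cells that Akr1c18 itself chose. Of the 23 mast cell and basophil genes, 10 were at least 2-fold higher in these cells than in cells without Akr1c18 and 4 lay within 2-fold, Kit among them at 12.9 against 19.5 CPM. Another 3 had 1 to 4 UMIs in the 93 cells and 6 had 0, of which 4 had 0 in both sets of cells. The share of all genes that were at least 2-fold higher in the 93 cells was not computed. The count of 10 therefore has no background and is only a tally of the list. Hdc was at 954.8 CPM against 56.9 CPM in 4931 cells without Akr1c18, Mcpt8, a basophil protease gene, at 840.9 against 104 CPM, and the transcription factor gene Gata2 at 331.2 against 39.1 CPM. Il4, Il13 and Cd200r3 were at 212.9, 154.8 and 94.6 CPM against 13.5, 0.527 and 0.446 CPM. Ccl6 was at 5926.9 against 65.5 CPM and Ly6g at 1671 against 18.3 CPM. The eosinophil granule genes Prg2 and Epx were found in 18.3% and 37.6% of the 93 cells against 1.24% and 4.38%. Of the other eosinophil markers, Siglecf was found in 11.8% against 5.52% and Ear6 in 2.15% against 1.06%, while Ear1 and Il5ra had 0 UMIs in the 93 cells. Promyelocyte genes were low, with Mpo at 10.8 against 281.6 CPM, Ms4a3 at 45.2 against 772.3 CPM and Ctsg at 1937.6 against 6230.4 CPM. Cpa3 was at 823.7 against 629.9 CPM, within 2-fold, and the 4 genes at 0 in both were Fcer1a, Mcpt4, Tpsb2 and Tpsab1. In these 93 cells Akr1c13 was at 896.8 CPM (812.8 to 987.1) against 212.2 CPM, and Akr1c12 at 172.0 CPM (136.4 to 214.1) against 32.1 CPM. Their median depth was 10407 UMIs and 2540 genes before thinning, against 17128 UMIs and 3808 genes in cells without Akr1c18, and the part of depth in these differences was not tested.

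Levels also differed between phases of the cell cycle, which were called from sets of S and G2/M genes. Akr1c18 was at 108.2 CPM (102.8 to 113.8) in 2803 vehicle cells called G1, at 10.4 CPM (7.04 to 14.9) in 575 S cells and at 15.1 CPM (12.8 to 17.8) in 1904 G2/M cells. Here too the intervals of Akr1c18 do not cover the spread between cells. Of the 93 cells with at least 5 UMIs, 86 were called G1 (92.5%, 85.1 to 96.9), against 51.6% of cells without Akr1c18. Akr1c12 was at 52.7, 21.6 and 19.4 CPM in G1, S and G2/M, and Akr1c13 at 278.2, 177.0 and 202.7 CPM. Cpa3 had the same order of G1 over the other phases, at 958.1, 290.4 and 316.6 CPM. The correlation of Akr1c13 with Cpa3 within each phase stayed within 0.1 of the value over all cells. For Akr1c12 with Cpa3 it was 0.23, 0.19 and 0.20 in G1, S and G2/M cells. For Akr1c18 with Cpa3 it was 0.010, 0.12 and 0.16, and so near 0 in G1. By depth, Akr1c18 was at 161.4 CPM in the 25% of vehicle cells with the fewest UMIs and at 17.6 CPM in the 25% with the most, whereas Akr1c13 lay between 231.3 and 248.2 CPM in all 4 groups of that size.

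The 25% of vehicle cells with the highest share of 24 neutrophil maturation genes had 1109 of 1690 thinned Akr1c18 UMIs, or 167.9 CPM, against 9.99 CPM in the 25% with the lowest. That list includes Ly6g, whose correlation with Akr1c18 was 0.49, so the split is not independent of Akr1c18. In the 62 vehicle cells whose share exceeded the retinoic acid median, Akr1c18 was at 3.23 CPM (0.0817 to 18.0), from 1 UMI. The genes of that list did not go one way with Akr1c18. Ly6g, Anxa1 and Ifitm6 were higher in the 93 cells than in cells without Akr1c18, with Anxa1 at 1569.9 against 446.2 CPM and Ifitm6 at 621.5 against 72.4 CPM, while Camp was at 2.15 against 295.6 CPM and Ngp at 77.4 against 980 CPM. Akr1c13 ran the other way, from 282.8 CPM in the lowest 25% to 213.6 CPM in the highest 25%, and Akr1c12 stayed between 35.9 and 40.3 CPM with overlapping intervals.

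In the retinoic acid library Akr1c13 was thin and even. Of its 822 positive cells at 5000 UMIs, 745 had 1 UMI and none had more than 3. Its level was 29.6, 25.1 and 27.0 CPM in G1, S and G2/M cells, with overlapping intervals. In 4 groups of 25% of the cells, from the lowest to the highest maturation share, it was at 30.3, 29.2, 28.1 and 21.3 CPM. The maturation genes themselves took a median of 20.7% of the UMIs in the highest group, and with them left out of the total the levels were 30.6, 30.0, 30.1 and 27.8 CPM with overlapping intervals, so no difference between the groups was detectable. Akr1c12 and Akr1c13 were found together in 7 of these cells, and the share of cells with Akr1c12 was 0.852% (0.343 to 1.75) among cells with Akr1c13 and 0.617% (0.432 to 0.853) among the others.

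The proportions of the 3 genes to each other differed between the libraries and within the vehicle library. For every 100 UMIs of Akr1c13 there were 14.5 of Akr1c12 (14.0 to 15.1) and 18.5 of Akr1c18 (17.9 to 19.1) under vehicle, and 4.24 (3.52 to 5.07) and 0.538 (0.307 to 0.875) under retinoic acid. Among thinned vehicle cells the proportion of Akr1c12 was 19.7 (17.9 to 21.6) in cells with 5 or more Cpa3 UMIs and 11.7 (9.82 to 14.0) in cells with none. That of Akr1c18 was 100.7 (93.0 to 109.1) in cells with 5 or more Cyp11a1 UMIs and 4.21 (3.26 to 5.35) in cells with none. Cpa3 and Cyp11a1 were themselves correlated with the 3 genes to unlike degrees, so these differences describe the splits and are no separate evidence. The intervals treat each UMI as independent, although few cells held most of the Akr1c18 UMIs.

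The other genes of the pathways were read from lists that were drawn up with earlier results of these libraries known. Of the 11 other aldo-keto reductase genes, 5 reached 20 CPM, of which Akr1e1 was at least 2-fold lower, against 5.05% of all tested genes, and 4 lay within 2-fold. Akr1a1, which encodes a broad aldehyde reductase, was at 246.6 and 171.9 CPM, and Akr1b3, the aldose reductase gene, at 67.7 and 35.0 CPM. The median log2 ratio of the 5 was −0.52, against 0.01 for all 5548 genes.

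Prostaglandins are substrates of AKR1C enzymes, and leukotrienes share their arachidonate precursor. Of 30 genes on that list, 12 had at least 20 CPM, with 1 at least 2-fold higher, 2 at least 2-fold lower and a median log2 ratio of 0.15, where 8.07% of all tested genes differed that much either way. Ptgs1, which encodes cyclooxygenase-1, was at 0.938 CPM under vehicle and 37.0 CPM under retinoic acid, a log2 ratio of 5.29 (5.00 to 5.61). Ptgr1, a prostaglandin reductase gene, was at 72.2 and 19.3 CPM, and Ptgds, which encodes a prostaglandin D2 synthase, at 21.0 and 6.77 CPM. The leukotriene genes Alox5ap and Lta4h were at 776.6 and 618.7 CPM and at 307 and 389.5 CPM. The gene for the other prostaglandin D2 synthase, Hpgds, had 22 and 29 counts.

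Of 25 steroid genes, 10 had at least 20 CPM, 9 of them within 2-fold, with a median log2 ratio of −0.03, where 8.07% of all tested genes differed at least 2-fold. The exception was Cyp11a1, at 268.5 CPM (265.3 to 271.7) under vehicle and 15.1 CPM (14.4 to 15.9) under retinoic acid, a log2 ratio of −4.15. In vehicle cells with 5 or more Cyp11a1 UMIs (415 cells), Akr1c18 was at 597.6 CPM (564.8 to 631.8), against 6.17 CPM (4.80 to 7.81) in the 2236 cells with none. The progesterone receptor gene Pgr and Hsd3b1, which encodes an enzyme that turns pregnenolone into progesterone, had 0 counts in both libraries.

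Among 24 genes of the oxidative stress response driven by NRF2, a known regulator of human AKR1C genes, 16 had at least 20 CPM and 14 of these lay within 2-fold, with a median log2 ratio of 0.06, beside the same 8.07%. Gsta4 was lower (27.6 and 6.23 CPM) and Gstm1 higher (425.2 and 852.8 CPM), and Nfe2l2, which encodes NRF2, was at 55.5 and 59.0 CPM. Of 23 genes of interleukin-3 signalling and its STAT5 targets, 15 had at least 20 CPM, of which 5 were at least 2-fold lower and none at least 2-fold higher, with a median log2 ratio of −0.88, where 5.05% of all tested genes were lower and 3.03% higher by that much. The lower genes were the cell cycle gene Ccnd2 (42.1 and 4.88 CPM), the receptor gene Csf2rb2 (32.9 and 4.98 CPM), the kinase gene Pim2 (23.9 and 3.95 CPM), the cytokine gene Csf2 (21.2 and 7.30 CPM) and the signalling inhibitor gene Socs1 (103.1 and 36.4 CPM). The receptor genes Il3ra and Csf2rb were at 60.1 and 30.9 CPM and at 240.1 and 124 CPM, just within 2-fold. Csf2rb2 and Csf2rb are close copies, so their counts are uncertain. Over vehicle cells the correlation of Il3ra with the 3 genes was between 0.07 and 0.08. Of 23 mast cell and basophil genes, 8 had at least 20 CPM and 5 of these were at least 2-fold lower, against 5.05% of all tested genes, namely Cpa3, Itga2b, Hdc, Gata2 and Itgb7, while Mcpt8, Fcer1g and Srgn lay within 2-fold.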

How the data were processed

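Each deposited matrix holds whole UMI counts that the authors had not normalised, and its header names Cell Ranger 4.0.0. The submitters' processing notes name mm10 and GRCm38.p4, and neither the annotation nor the read length nor the cell calling settings are given in the sources used here. Of the 32285 gene identifiers, 32158 matched GENCODE M21. A barcode was left out below 1000 UMIs or 500 genes or above 10% mitochondrial UMIs (310 under vehicle and 276 under retinoic acid). Doublets were not called; an alternative left out the 5% of cells with most UMIs. Counts were summed over kept cells and given as CPM, without scaling by length because each UMI marks 1 molecule at its 3′ end. Ratios have 0.5 counts added. All intervals are 95% and cover counting error only. Intervals of levels and ratios treat each UMI as independent, so they are too narrow where few cells held most UMIs of a gene, as with Akr1c18. For 0 counts the upper limit was 0.0372 CPM under vehicle and 0.0335 CPM under retinoic acid. The level of 3 counts was used only to draw and describe counts of 0. With 1 library per group no test was made. For shares and correlations cells were thinned to 5000 UMIs, which left out 194 vehicle and 481 retinoic acid cells. Phases were called with scanpy 1.11.5, and the maturation share is the percent of UMIs in 24 neutrophil genes. edgeR 4.0.16 gave TMM factors. The calculations were tested on simulated data. The members and lists were chosen with earlier results of these data known. Named genes were the 3 members, list genes with at least 20 CPM or with the largest ratio in their list, and genes of the Akr1c locus. For each member, the 5 highest and 3 lowest correlations among genes with at least 20 CPM under vehicle were named too. Il4, Il13, Cd200r3, Prg2, Epx, Siglecf, Ear1, Ear6, Il5ra, Anxa1, Ifitm6, Hpgds, Ptprc and the zero-count genes were named after their values were seen.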

Additional observations from a re-analysis of the deposited data

How the results depend on the processing

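Of 104 recomputed values, 77 lay inside the interval first given, within 0.1 of a reported correlation or within 1.5 times a reported count, and 27 moved further. No log2 ratio or correlation changed sign. The shares of cells and the numbers of genes among the 104 values could not change sign. The log2 ratios of the 3 genes stayed within their intervals under all deposited barcodes, a 5% mitochondrial limit, equal weight for every cell, removal of the 5% deepest cells, 0.1 or 1 added counts and removal of shared barcodes, which was added after seeing the data. With every cell weighted equally the ratio of Akr1c18 was −7.57, near the end of its interval. TMM scaling added 0.08 and moved Akr1c13 to −3.08.

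Shares of cells depended on depth, as the thinning itself sets. At 3000 UMIs per cell they were 8.24%, 39.0% and 5.06% of vehicle cells for Akr1c12, Akr1c13 and Akr1c18, and 0.404% and 7.64% of retinoic acid cells for Akr1c12 and Akr1c13. At 10000 UMIs they were 21.0%, 65.6% and 7.71% under vehicle, and 1.24% and 22.5% under retinoic acid. Without thinning they were 26.7%, 73.1% and 11.6% under vehicle, and 1.74%, 30.8% and 0.196% under retinoic acid.

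The correlation of Akr1c12 with Cpa3 was 0.35 at 10000 UMIs per cell. That of Akr1c12 with Akr1c13 was 0.41 at 10000 UMIs and 0.45 without thinning, and that of Akr1c12 with Akr1c18 was 0.094 in S cells. The cause was not tested. For Akr1c18 with Cpa3 the first value was 0.078, and it was 0.012 on UMIs without log, 0.010 in G1 cells and 0.15 at 10000 UMIs. These lay within 0.1 and were counted as unchanged, although that limit is wider than the first value itself. As other numbers of genes were compared, 618 genes were at least 2-fold lower and 923 at least 2-fold different at 5 CPM, 77 and 133 at 100 CPM, and 4018 and 6081 without a minimum, against 280 and 448 at 20 CPM. No paired analysis was possible because neither group had more than 1 library.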

Other observations

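Several genes of the pathway lists lay under 20 CPM in both libraries but differed widely between them. Ptger2, which encodes a receptor for prostaglandin E2, had 26 counts under vehicle and 489 under retinoic acid, a log2 ratio of 4.06 (3.51 to 4.71). Alox15, which encodes a lipoxygenase of eosinophils and macrophages, had 167 and 18 counts (−3.33, −4.16 to −2.66). Kcnab3, which encodes a potassium channel subunit of the aldo-keto reductase fold, had 227 and 15 counts (−4.03, −4.93 to −3.32). Il2ra, the interleukin-2 receptor alpha chain gene, had 52 and 5 counts (−3.41, −5.21 to −2.22), and Me1, the malic enzyme gene, had 84 and 16 (−2.51, −3.42 to −1.76). Ptgs2, the cyclooxygenase-2 gene, had 31 counts and 1 count, with a counting interval of −10.45 to −2.52 for the log2 ratio.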
